A study of Homo sapiens with 6 samples.

Results

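ATF4 and 8 genes that cells induce under stress were followed in PC9, a human lung adenocarcinoma line whose growth depends on a mutant, active EGFR. The 9 genes are ATF4, ATF5, DDIT3, DDIT4, NUPR1, CHAC1, SESN2, PPP1R15A and VLDLR. They were taken by symbol from the authors' deposited table, which lists 26485 genes, and all 9 were among the 13494 genes with an adjusted p-value. The study sequenced polyadenylated RNA of 3 libraries of untreated parental PC9 and 3 libraries of dacomitinib-resistant PC9 kept in 100 nM of the drug, a covalent inhibitor of EGFR-family kinases. Resistant cells came from the parental line by 6 months of exposure to rising doses, beginning at 1 pM and ending at 100 nM. Resistance and the presence of drug therefore came together and cannot be told apart.

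The integrated stress response starts when one of a set of kinases phosphorylates the translation factor eIF2-alpha. General protein synthesis then slows, while translation of ATF4 increases through upstream open reading frames in its transcript, so that ATF4 protein can change without a change of its RNA. ATF4 is a basic leucine zipper factor that activates genes of amino acid supply, redox balance and, in prolonged stress, cell death. Its effectors include feedback regulators that end the response and inhibitors of the growth kinase complex mTORC1. Protein was not measured here, and in bulk RNA fewer cells with a transcript and less RNA per cell cannot be told apart.

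The authors' deposited table gives 1 mean, 1 fold change and 1 standard error (SE) per gene, and no value per library. The mean is printed to 15 digits, so the whole reads behind it could be solved for, as described under the processing. A normalized count below is such a read number divided by the size factor of its library, a number that scales libraries to a common depth. The 6 size factors were 1.08, 1.03 and 0.539 for the parental libraries and 1.37, 1.19 and 1.06 for the resistant ones, as the sign of the fold change places them, so 1 parental library was shallow. Library values below follow this order, which is tied to no replicate number. The share of all genes whose groups do not overlap was not computed, so statements on overlap only describe the genes named. Every direction rests on reading the fold change as resistant over parental, since the table's header does not give it. The epithelial genes EPCAM, KRT7, KRT8, KRT18, KRT19 and CDH1 were all detected, while the lung factor gene NKX2-1 stood at 0, in the authors' deposited table. Of 9 fibroblast markers, 5 (COL1A2, DCN, LUM, PDGFRA and THY1) stood at 0 and 2 were called higher, PDGFRB and COL1A1, with 1, FBLN1, lower, and the list's summed fitted counts, computed from the authors' deposited table, were 475 (parental) and 770.4 (resistant). Blood cell markers stood at 0 for 3 of 6 (PTPRC, CD3E and HBA1) with sums of 166 and 171, and endothelial markers for 2 of 4 (VWF and KDR) with sums of 35.0 and 14.3, by the authors' deposited table. Nearly all of the blood cell signal was CD68, at a mean count of 166.7 beside 1.65 for CD14 and 0.121 for HBB. The endothelial marker CDH5 was called lower at -1.20 ± 0.38 (adjusted p = 0.00693 by the authors' Wald test). The part of these markers in the results was not tested.

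The genes did not move as one. Of the 9, 4 were higher in resistant cells, 2 were lower and 3 did not pass an adjusted p of 0.05 by the Wald test of the authors' deposited table, where 28.2% of all tested genes were called in either direction, 13.3% higher and 14.8% lower. Other call rules, whose effect on the members is given at the end, called 23.2% of genes with no low-count filter, 28.1% after centring, 44.1% of genes with at least 50 counts and 21.3% at an adjusted p under 0.01, where 9.77% of tested genes were higher. Against a null of at most 0.5 log2 units 7.57% were called, 3.95% lower. DDIT3, PPP1R15A, NUPR1 and VLDLR rose, ATF4 and DDIT4 fell, and ATF5, CHAC1 and SESN2 did not pass. The members' median log2 fold change was 0.70, against 0.02 for all tested genes, in the authors' deposited table. The members were chosen with results of these data known, so their share is a description.

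ATF4, the transcription factor at the centre of the response, had the highest count of the 9 genes (counts are not scaled by length) and was lower in resistant cells. Its mean normalized count of 1893 ranked 293 among the 13494 tested genes of the authors' deposited table. The gene lies on chromosome 22 from 39519695 to 39522685 on the plus strand (GRCh38). Parental libraries held normalized ATF4 counts of 2562, 2108 and 2309, and resistant libraries 1576, 1264 and 1538. As recovered, all resistant libraries were below all parental ones. The first search allowed counts only in a narrow range around the fitted group level, which by itself keeps the groups of ATF4 apart. With counts allowed within 1.5-fold, where overlap was possible, the same reads matched best, with a difference of 5.2e-08 log2 units against 6.5e-07 for the next of 62787 combinations. Within 2-fold they again matched best, but the next, whose groups overlap, differed by 5.1e-07 and was under 10 times farther. Among matched genes with only 1 combination in the range searched, the deposited fold was missed by up to 4.5e-06 log2 units. Such margins therefore cannot settle the ATF4 values per library, nor whether its groups overlap. The recovered group means were 2327 ± 228 in parental and 1459 ± 170.2 in resistant cells (SD, n = 3 each). The log2 fold change was -0.67 ± 0.09 (SE) in the authors' deposited table, its 95% interval running from -0.85 to -0.49 and adjusted p = 3.18e-12.

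ATF4 stood in a stretch of chromosome 22 whose genes were mostly lower. Of the 50 nearest tested genes with a mean normalized count of at least 50, 25 on either side, 43 had a fold change below 0 and 30 were called lower, with a median of -0.33, in the authors' deposited table. Of all 6952 genes with such counts, 3687 were below 0 and 23.3% were called lower in the authors' deposited table. Only 3 of these 50 neighbours had a fold change below that of ATF4, which was 0.34 log2 units under their median (difference of -0.34) in the authors' deposited table. The median of ATF4's neighbours was the lowest of the 9 stretches, which elsewhere ran from -0.03 around ATF5 to 0.22 around VLDLR. The part of the stretch in the fold change of ATF4 was not tested.

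**Figure D1:**
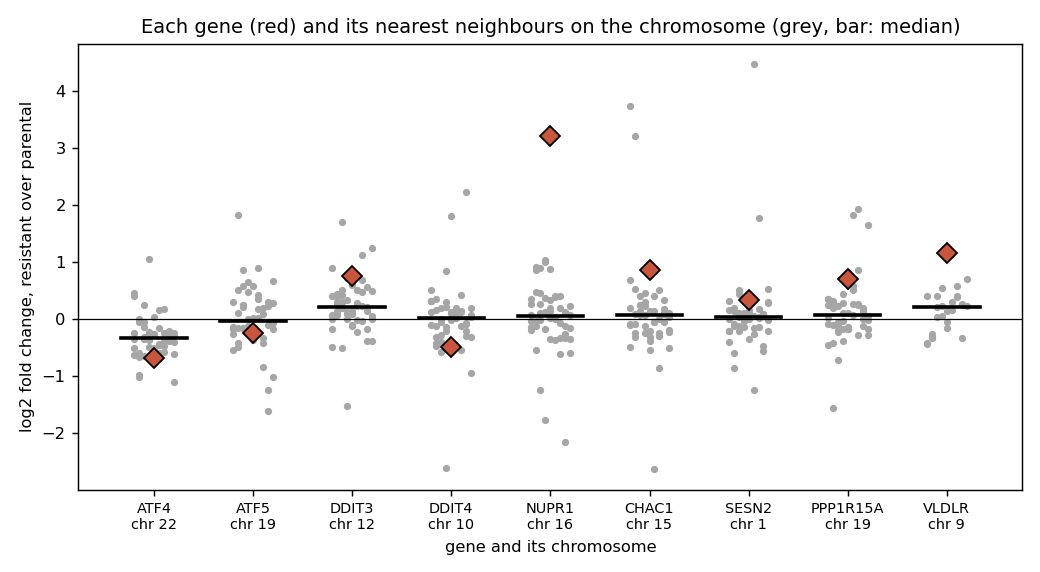
Log2 fold change (resistant over parental, vertical axis) of each gene (red diamond) and of its nearest tested neighbours on the same chromosome (grey points, black bar at their median), 25 on either side or fewer at a chromosome end. The neighbours of ATF4 have a median of -0.33, while the medians of the other 8 stretches lie between -0.03 and 0.22.

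ATF5, the closest relative of ATF4 in the set and likewise controlled at translation, lies on chromosome 19 from 49928702 to 49933935 on the plus strand. Its normalized counts were 299, 312 and 297 in parental and 246, 259 and 260.4 in resistant libraries. Libraries of the 2 groups did not overlap, but the gap was small. Group means were 303 ± 8.55 and 255 ± 7.76 (SD, n = 3 each). The log2 fold change of -0.25 ± 0.12 missed the threshold in the authors' deposited table (adjusted p = 0.0986), with a 95% interval from -0.48 to -0.02. ATF5 shares 1062 bases with NUP62 on the opposite strand, a nucleoporin gene whose log2 fold change was 0.08 ± 0.08 in the authors' deposited table. IL4I1, also on the opposite strand, shares 838 bases and averaged 4.13 counts, with a log2 fold change of 2.62 ± 1.09 in the authors' deposited table (adjusted p = 0.0580). AC011452.1, likewise on the opposite strand, spans all 5234 bases of ATF5 and has no value here.

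DDIT3 encodes CHOP, a C/EBP-family factor that ATF4 induces and that promotes cell death when stress persists. Its normalized counts were 88.5, 99.6 and 94.6 in parental and 157, 163 and 159 in resistant libraries. Each resistant library was above each parental one, with little spread within the groups. Group means were 94.3 ± 5.57 and 159.6 ± 3.33 (SD, n = 3 each). DDIT3 rose by 0.76 ± 0.17 on the log2 scale in the authors' deposited table (adjusted p = 4.52e-05), a 1.69-fold difference. The gene lies on chromosome 12 from 57516588 to 57521737 on the minus strand and shares 982 bases with the end of MARS, the methionyl-tRNA synthetase gene, on the opposite strand. At its other end DDIT3 shares 1028 bases with MBD6, also on the opposite strand, which averaged 148 counts with a log2 fold change of -0.17 ± 0.16 in the authors' deposited table. MARS, at a mean count of 802, had a log2 fold change of -0.02 ± 0.08 in the authors' deposited table (adjusted p = 0.884). A further annotated protein-coding gene, AC022506.1, shares 2769 bases with DDIT3 on the same strand and has no value here. Reads in bases shared on the same strand cannot be assigned to either gene, nor can those shared with MARS and MBD6 without stated strand use. The neighbours of DDIT3 had a median of 0.21, and 46 of 50 had a fold change below that of DDIT3, in the authors' deposited table.

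PPP1R15A encodes GADD34, the subunit that brings protein phosphatase 1 to eIF2-alpha and so ends the translational block. Parental libraries held normalized counts of 146, 144 and 156, and resistant libraries 239.8, 239 and 243. Relative to their mean, the resistant values lay closer together than those of any other group of the 9 genes, with a coefficient of variation of 0.99%, and all were above the parental ones. Group means were 149 ± 6.33 and 241 ± 2.38 (SD, n = 3 each). PPP1R15A rose by 0.70 ± 0.14 on the log2 scale (adjusted p = 3.10e-06), with a 95% interval from 0.43 to 0.97, in the authors' deposited table. The gene is on chromosome 19 from 48872392 to 48876057 on the plus strand, and its neighbours had a median of 0.07 in the authors' deposited table.

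PPP1R15B, the constitutive counterpart of PPP1R15A, had normalized counts of 108, 129.6 and 92.7 in parental and 119, 123 and 113 in resistant libraries, with overlapping groups. Its log2 fold change of 0.08 ± 0.18 missed the threshold in the authors' deposited table (adjusted p = 0.806). Whether its fold change differs from that of PPP1R15A was not tested.

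DDIT4 encodes REDD1, which stress, hypoxia and glucocorticoids induce and which restrains mTORC1 through the TSC complex. With a mean count of 1286 it ranked 514 among the tested genes of the authors' deposited table. Its normalized counts were 1491, 1408 and 1603 in parental and 1044, 1077 and 1092 in resistant libraries. As recovered, all resistant libraries were lower. These reads matched best within 1.5-fold and 2-fold limits too. At 2-fold, however, a combination with overlapping groups differed by only 6.5e-08 log2 units against 1.1e-08. The DDIT4 values per library, and whether its groups overlap, are therefore also not settled. The recovered group means were 1500.4 ± 97.8 and 1071 ± 24.8 (SD, n = 3 each). The log2 fold change was -0.48 ± 0.07 in the authors' deposited table (adjusted p = 1.49e-09). DDIT4 lies on chromosome 10 from 72273920 to 72276036 on the plus strand, where an antisense gene, DDIT4-AS1, shares 1066 bases with it. Its neighbours had a median of 0.03 in the authors' deposited table.

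SESN2, a leucine sensor and inhibitor of mTORC1, lies on chromosome 1 from 28259527 to 28282491 on the plus strand. Its normalized counts were 46.1, 62.9 and 42.7 in parental and 65.6, 69.8 and 59.2 in resistant libraries. The groups overlapped, since 1 parental library exceeded 1 resistant library. Group means were 50.5 ± 10.8 and 64.9 ± 5.35 (SD, n = 3 each). The log2 fold change of 0.34 ± 0.24 missed the threshold in the authors' deposited table (adjusted p = 0.343), and its 95% interval from -0.14 to 0.82 holds both no difference and a rise of the size of DDIT3.

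SESN1, a paralog of SESN2, was lower in resistant cells. Normalized counts of SESN1 were 30.4, 30.0 and 33.4 in parental and 16.0, 16.0 and 14.1 in resistant libraries, without overlap. Its log2 fold change was -1.01 ± 0.37 in the authors' deposited table (adjusted p = 0.0253). On refitting, the call was lost without the parental library of size factor 0.539 (log2 fold change of -0.97). It was also lost without the resistant library of size factor 1.06 (-0.96). Over all omissions the fold change stayed between -1.04 and -0.96. Their p ran from 0.0122 to 0.0199 by a normal test, around 0.0141, the largest p called. The call was therefore near the threshold and cannot be laid to particular libraries. The third sestrin gene, SESN3, was listed at 0 in the authors' deposited table.

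NUPR1, a small stress-induced chromatin protein, had the largest fold change and the lowest count of the 9 genes. Parental libraries held 1, 2 and 1 NUPR1 reads, and resistant libraries 20, 14 and 17. These reads are normalized counts of 0.922, 1.93 and 1.85 against 14.6, 11.8 and 16.0, so every resistant library was far above every parental one. Group means were 1.57 ± 0.563 and 14.1 ± 2.14 (SD, n = 3 each). With 4 parental reads in all against 51, the ratio of depth-scaled reads was 9.35, with an exact 95% interval from 3.44 to 35.6 that covers counting error only. NUPR1 rose by 3.22 ± 0.89 on the log2 scale in the authors' deposited table (adjusted p = 0.00173). The gene is on chromosome 16 from 28532708 to 28539174 on the minus strand, and all 50 of its neighbours had a lower fold change, with a median of 0.05, in the authors' deposited table.

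CHAC1 encodes an enzyme that breaks down glutathione and is a sensitive transcriptional target of ATF4. Its normalized counts were 14.8, 17.4 and 18.5 in parental and 33.5, 26.9 and 30.1 in resistant libraries, which come from 44 and 110 reads in all. No library of one group reached the other. Group means were 16.9 ± 1.95 and 30.2 ± 3.30 (SD, n = 3 each). The log2 fold change of 0.86 ± 0.38 missed the threshold in the authors' deposited table (adjusted p = 0.0748). Its 95% interval ran from 0.12 to 1.60. CHAC1 lies on chromosome 15 from 40952962 to 40956519 on the plus strand, and 48 of its 50 neighbours had a lower fold change in the authors' deposited table. CHAC2, its constitutive relative, had overlapping groups of 143, 140.3 and 137 in parental against 144, 155.7 and 133 in resistant libraries. Its log2 fold change was 0.04 ± 0.16 in the authors' deposited table (adjusted p = 0.898).

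VLDLR, a receptor for triglyceride-rich lipoproteins and reelin that ATF4 is known to induce in mouse liver, lies on chromosome 9 from 2621834 to 2660053 on the plus strand. Its normalized counts were 12.0, 18.4 and 11.1 in parental and 29.9, 34.5 and 31.0 in resistant libraries. All resistant libraries were above the parental ones, 1 of which stood apart upward. Group means were 13.8 ± 3.96 and 31.8 ± 2.40 (SD, n = 3 each), from 38 and 115 reads. VLDLR rose by 1.17 ± 0.39 on the log2 scale in the authors' deposited table (adjusted p = 0.0134). On refitting, the call was lost without the parental library of size factor 1.08 (log2 fold change of 1.04, SE of 0.45), whereas the other 5 omissions kept it. Leaving out the parental library of size factor 0.539 gave a similar 1.07 (SE of 0.43). Over all omissions the fold change stayed between 1.04 and 1.45. Their p ran from 0.0026 to 0.0220 by a normal test, around 0.0141, the largest p called in the authors' deposited table. The SE was larger with a library left out, so the lost call cannot be laid to that library. VLDLR-AS1 on the opposite strand averaged 2.41 counts in the authors' deposited table. Near the chromosome end 26 neighbours with enough reads were found, all with lower fold changes and with a median of 0.22, in the authors' deposited table.

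**Figure D2:**
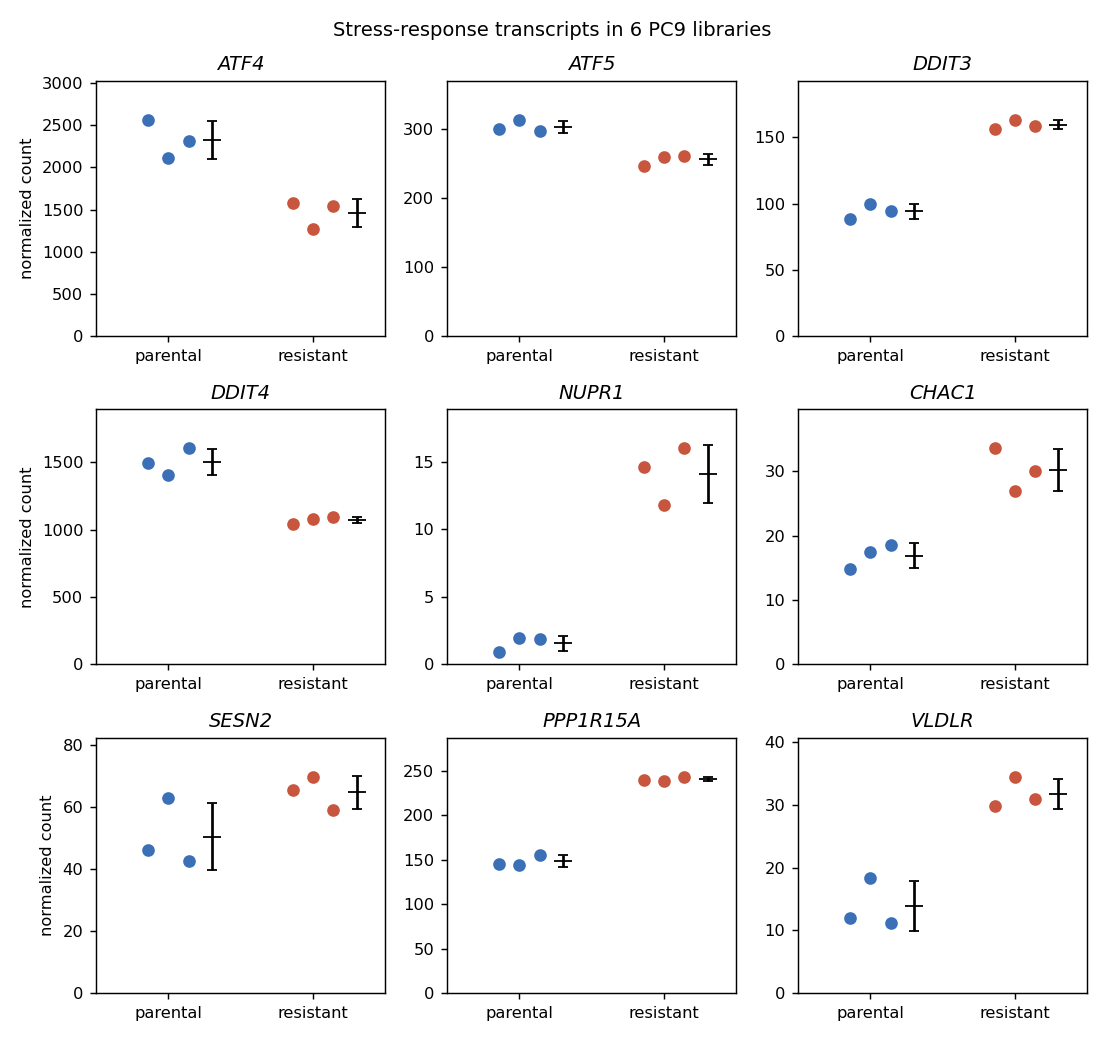
Normalized counts (vertical axis, from 0) of the 9 genes in 3 parental (blue) and 3 resistant (red) libraries, in the order of size factors 1.08, 1.03, 0.539 and 1.37, 1.19, 1.06, with black bars for the group mean ± SD (n = 3). As recovered, ATF4 and DDIT4 are lower in every resistant library, with ATF4 means of 2327 and 1459, while SESN2 is the gene whose groups overlap. The values per library of ATF4 and DDIT4, and whether their groups overlap, are not settled. The groups of ATF5 and CHAC1 do not overlap as recovered, and neither gene passed the test. The share of all genes whose groups do not overlap was not computed.

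**Figure D3:**
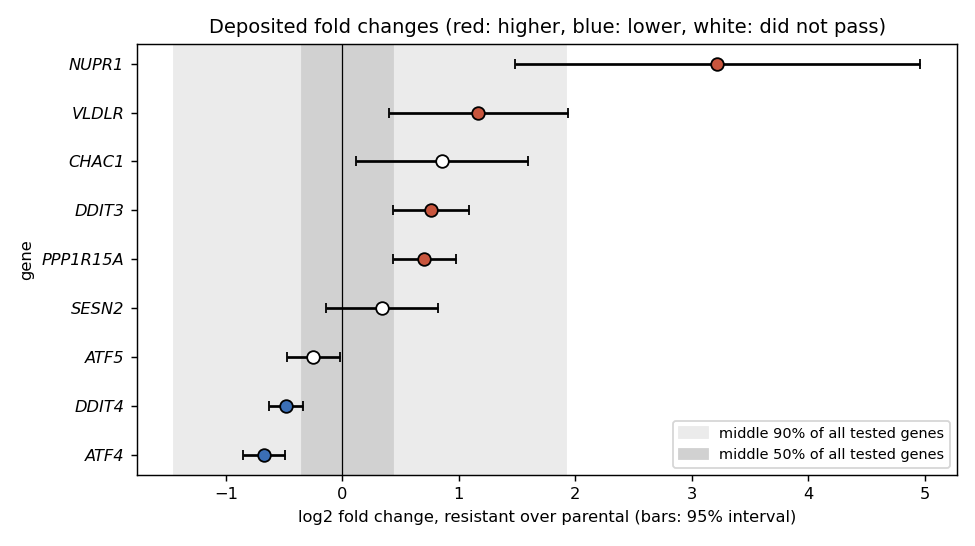
Log2 fold changes (resistant over parental, horizontal axis) of the 9 genes in the authors' deposited table with 95% intervals, filled where the adjusted p is under 0.05, over grey bands for the middle 50% and 90% of all tested genes. NUPR1 at 3.22 lies beyond the upper end of the wider band at 1.92, and the other 8 genes lie inside it, from -0.67 to 1.17.

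The promoters of CHAC1 and PPP1R15A are written out because, of the 8 genes with a promoter sequence, these 2 held a motif of the stress response (RefSeq, GRCh38.p14, 250 bases before to 50 after each start). The search covered the C/EBP-ATF response element TGATGNAA and the cyclic AMP response element TGACGTCA on both strands, whose matches do not overlap, and the longer ER stress response element. Positions are counted from the RefSeq start of each window, which differs from the gene start given above. CHAC1 holds the first in reverse orientation at position -209 of the window chr15:40953221-40953520. PPP1R15A holds the second at position -58 of the window chr19:48872171-48872470. By the gene starts given above, the CHAC1 motif lies inside the gene, which begins at 40952962. The PPP1R15A motif lies before its gene, which begins at 48872392. Plus-strand stretches, 5′ to 3′ with the motif in capitals, lie at chr15:40953222-40953309 and chr19:48872323-48872410.
CHAC1: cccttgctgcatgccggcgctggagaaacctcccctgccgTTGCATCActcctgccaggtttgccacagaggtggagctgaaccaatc
PPP1R15A: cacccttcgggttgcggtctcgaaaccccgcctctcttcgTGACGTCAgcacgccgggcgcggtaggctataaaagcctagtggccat
The first motif was found in 3.62% and the second in 1.85% of all 35116 promoter windows of that length, or in at least 1 window of 4.46% and 2.25% of 27305 genes, and the ER stress response element in 0.0769% of windows. ATF4, ATF5, DDIT3, DDIT4, SESN2 and VLDLR held none of these letters in their windows, and NUPR1 was not matched. A match describes the letters, not a bound site.

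The pathway lists that follow were not tested as sets, and their counts stand beside the 28.2% of all tested genes called. The called genes were 4 of the 10 partners, 26.7% of the 15 CREB and ATF genes, 45.5% of the 11 amino acid enzymes, 20.0% of the 10 transporters, 15.4% of the 13 synthetase genes and 62.5% of the 8 secreted and cell death genes in the authors' deposited table. Upstream of ATF4 stand the kinases and initiation factors that start the response, of which 29.4% were called against 28.2% of all tested genes. Of 17 tested genes of the eIF2-alpha kinases, eIF2 and eIF2B, 1 was higher and 4 were lower, with a median of -0.05, in the authors' deposited table. EIF2B4, a regulatory subunit of the exchange factor eIF2B, fell by 1.31 ± 0.15 (adjusted p = 6.85e-18), and EIF2B3 by 0.57 ± 0.17, in the authors' deposited table. GCN1, which activates the amino acid sensing kinase GCN2, fell by 0.64 ± 0.10, while the eIF2 subunit gene EIF2S3 rose by 0.23 ± 0.08, in the authors' deposited table. None of the 4 kinase genes EIF2AK1 (0.51 ± 0.25), EIF2AK2 (1.50 ± 1.13), EIF2AK3 (-0.38 ± 0.48) and EIF2AK4 (0.25 ± 0.20) passed in the authors' deposited table. EIF2AK2 and EIF2AK3 averaged only 2.95 and 14.4 counts, so a change of either could be missed.

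Partners and feedback genes of ATF4 moved both ways. Of 10 tested, 1 was higher and 3 were lower, with a median of -0.22, in the authors' deposited table. CEBPB, a dimer partner of ATF4 that also forms heterodimers with CHOP, fell by 1.28 ± 0.07 in the authors' deposited table (adjusted p = 4.83e-81). EIF4EBP1, a repressor of cap-dependent translation and an ATF4 target, fell by 0.46 ± 0.09 in the authors' deposited table. The pseudokinase gene TRIB3, which restrains ATF4, did not pass at -0.19 ± 0.11 in the authors' deposited table (adjusted p = 0.215).

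ATF3, the stress-induced factor named here after its values were seen, was the 1 higher gene of the partners. Its reads were 7, 11 and 1 in parental and 94, 71 and 54 in resistant libraries, with 19 and 219 in all. Normalized counts were 6.45, 10.6 and 1.85 against 68.5, 59.7 and 50.8, so the groups were well apart although the parental libraries varied by a coefficient of variation of 69.6%. ATF3 rose by 3.09 ± 0.43 on the log2 scale in the authors' deposited table (adjusted p = 1.41e-11). Among 15 tested CREB and ATF family genes other than ATF4 and ATF5, 3 were higher, ATF3, CREB3L1 and BATF, and 1 was lower, CREB3L2, with a median of 0.17 in the authors' deposited table.

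Metabolic targets of ATF4 showed no common direction. Of 11 tested enzymes of amino acid synthesis, 2 were higher and 3 lower, with a median of -0.08, in the authors' deposited table. Asparagine synthetase, ASNS, rose by 0.69 ± 0.19, while the serine synthesis enzymes PHGDH and PSAT1 fell by 1.63 ± 0.09 and 0.44 ± 0.11, in the authors' deposited table. The mitochondrial folate enzyme gene MTHFD2 fell by 0.35 ± 0.12 in the authors' deposited table. Among 10 measured amino acid transporters, the leucine carrier gene SLC7A5 (0.40 ± 0.10) was the 1 higher and the glycine carrier gene SLC6A9 (-0.96 ± 0.14) the 1 lower in the authors' deposited table. Among 13 measured genes of aminoacyl-tRNA synthetases and the tRNA exporter XPOT, 1 was higher, LARS, and 1 lower, YARS, in the authors' deposited table (0.67 ± 0.14 and -0.21 ± 0.08), and YARS lost its call when fold changes were centred on the median.

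Of 10 tested autophagy genes linked to ATF4, 7 were higher and 2 lower, with a median of 0.46, against 13.3% higher and 14.8% lower of all tested genes in the authors' deposited table. GABARAPL1 and MAP1LC3B, which coat the forming autophagosome, rose by 2.28 ± 0.20 and 1.13 ± 0.14 in the authors' deposited table. WIPI1, a phosphoinositide-binding protein of early autophagosomes, rose by 1.80 ± 0.19, and the conjugating enzyme gene ATG3 fell by 0.58 ± 0.11, in the authors' deposited table. ATG16L1 fell by 0.30 ± 0.12 in the authors' deposited table, a call lost on centring (adjusted p = 0.0732).

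Cell death outputs split. Of 8 tested secreted and cell death genes, 3 were higher and 2 lower, the median being -0.15 while the mean was 0.07, in the authors' deposited table. The BH3-only genes BBC3 and PMAIP1, whose products bind BCL2-family proteins to promote apoptosis, rose by 1.65 ± 0.21 and 1.23 ± 0.17, and the stress cytokine gene GDF15 rose by 0.37 ± 0.14, in the authors' deposited table. TNFRSF10B, the death receptor that CHOP is known to induce, fell by 0.46 ± 0.17, and VEGFA by 1.45 ± 0.11, in the authors' deposited table.

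In the other arms of the unfolded protein response, more genes were called lower than higher. Of 16 tested genes of the ATF6 and IRE1 arms, 8 were lower and 1 was higher, with a median of -0.35, where 14.8% and 13.3% of all tested genes were so called in the authors' deposited table. HSP90B1, an endoplasmic reticulum chaperone gene among the 8, lost its call with no low-count filter (adjusted p = 0.0508) and on centring (adjusted p = 0.114). EDEM1, which sends misfolded glycoproteins to degradation, fell by 1.46 ± 0.21, the disulfide isomerase gene PDIA6 by 1.10 ± 0.07 and the IRE1 substrate XBP1 by 0.90 ± 0.10, in the authors' deposited table. HERPUD1, which takes part in degradation at the endoplasmic reticulum, rose by 0.47 ± 0.19 in the authors' deposited table. HSPA5, the chaperone that sets the response, did not pass at -0.48 ± 0.28 in the authors' deposited table. Its mean count was only 43.6, beside 2293 for HSP90B1 and 1391 for PDIA6, which limits what its test could detect.

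Around DDIT4 and SESN2, of 17 tested genes of mTORC1 and its nutrient sensors, 1 was higher and 3 were lower, with a median of -0.03, in the authors' deposited table. The 23.5% called lies under the 28.2% of all tested genes. RHEB, the activator of mTORC1, rose by 0.32 ± 0.08, while NPRL3 and SEH1L, of the complexes that report amino acids to it, fell by 0.47 ± 0.12 and 0.64 ± 0.14, in the authors' deposited table.

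Relatives of VLDLR were lower more than higher. Of 12 tested genes of the lipoprotein receptor family and its partners, 3 were higher and 7 lower, with a median of -0.52, beside 13.3% higher and 14.8% lower of all tested genes in the authors' deposited table. LRP5, a co-receptor for Wnt ligands, fell by 1.06 ± 0.16, whereas LRP1, a large endocytic receptor, rose by 1.70 ± 0.18, in the authors' deposited table. LRP8, the second reelin receptor and the closest relative of VLDLR, had normalized counts of 81.1, 106 and 98.3 in parental and 67.1, 71.5 and 61.1 in resistant libraries, which did not overlap. Its log2 fold change was -0.51 ± 0.21 in the authors' deposited table (adjusted p = 0.0488). That call was lost in 5 of 6 omissions of a library, with fold changes from -0.63 to -0.41 over the 6, and only leaving out the parental library of size factor 1.08 kept it. It was also lost with no low-count filter (adjusted p = 0.0573) and on centring (adjusted p = 0.0677).

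**Figure D4:**
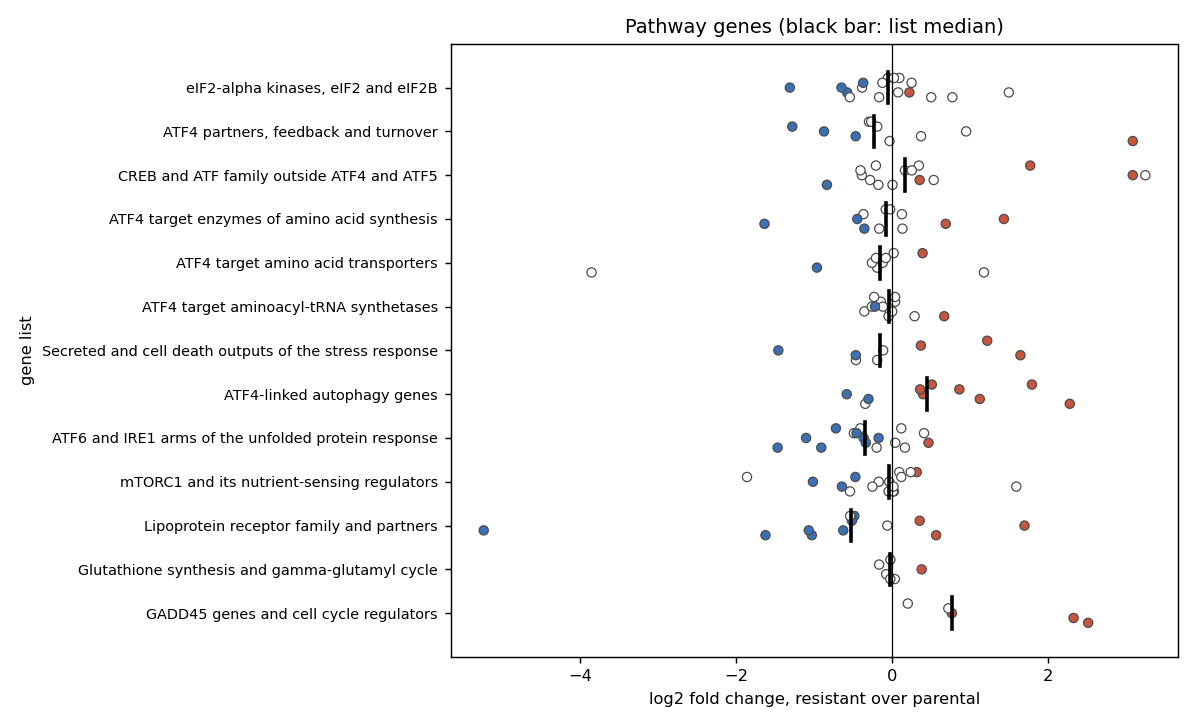
Log2 fold changes (resistant over parental, horizontal axis) of tested genes in 13 pathway lists, red where called higher, blue where called lower and white where the test was not passed, with a black bar at each list's median in the authors' deposited table. The medians run from -0.52 for the lipoprotein receptor family to 0.77 for the list of GADD45 genes and cell cycle regulators, with 0.46 for autophagy genes.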

How the data were processed

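Bulk libraries were made from polyadenylated RNA by a modified TranSeq method with MARS-seq primers, per the labels' protocols, a kind of library that reads transcript ends. The submitters' processing notes name cutadapt, STAR, HTSeq, DESeq2 and GRCh38, and versions, strand use and barcode collapsing are not given in the sources used here. The authors' deposited table gives per gene the mean signal over libraries (a normalized count), a log2 fold change with its standard error, a Wald score, a p-value and a Benjamini-Hochberg adjusted p-value, per the file headers. Its means sum to 3965670. Genes were called at an adjusted p under 0.05 of the authors' two-sided test, since no column per library was at hand for a planned count test. No label ties the replicates to separate cultures, and p-values therefore speak of the spread among 6 libraries, possibly technical.

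Reads per library were recovered as follows. Genes seen once in a single library share 6 means, 3 with each sign of fold, which yield the size factors. All whole-read combinations giving a gene's mean to its 15 printed digits were enumerated (numpy 2.4.6), and the one whose negative binomial fold, at the dispersion the standard error implies, matched the deposited fold was taken. For 4 of the 9 genes only 1 combination existed in the range searched, and the 9 matched within 2.3e-06 log2 units. For ATF4 6427 combinations were compared, the next best differing by 5.0e-06 against 5.2e-08. The search was limited to group ratios near the deposited fold, and for ATF4 and DDIT4 to counts within 1.25-fold of the fitted level. Of 40 other genes with means of 20 to 60, 39 matched, but each had 1 combination, so they do not test a choice among many. The procedure was tested on simulated data at counts up to that of ATF4, under these limits only. At the levels of ATF4 and DDIT4 not every simulated gene was resolved. Wider limits were tried for ATF4 and DDIT4 after seeing the data. Groups of recovered libraries follow the sign of the fold and are tied to no replicate number. An exact permutation test of 3 against 3 cannot go below p = 0.1 and was not used for calls.

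Intervals on folds are 95% normal intervals. Positions are from GENCODE 29 by symbol. Named pathway genes are, per list, up to 3 called rises and 3 called falls with a mean count of at least 50. Genes outside that rule (ATF3, CREB3L1, SESN1, SESN3, PPP1R15B, CHAC2, LRP8 and those named as not passing or as overlapping) were chosen after their values were seen. The 9 genes and all lists were chosen with earlier results of these data known. Some genes counted in the lists are not reported here by name. Alternatives tried were adjustment without the low-count filter, a floor of 50 counts, centring on the median, a null of 0.5 log2 units, a threshold of 0.01 and leaving out each library.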

Additional observations from a re-analysis of the deposited data

How the results depend on the processing

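The 9 log2 fold changes kept direction and call without the low-count filter and after centring on the median of -0.03 (9 of 9 each), and all 6 with at least 50 counts kept theirs when only such genes were adjusted. That floor leaves 2 members called higher, because NUPR1 and VLDLR fall under it. At an adjusted p under 0.01, VLDLR (1.17) lost its call. Against a null of at most 0.5 log2 units, ATF4 (-0.67), DDIT3 (0.76), DDIT4 (-0.48), PPP1R15A (0.70) and VLDLR (1.17) lost theirs. This left 1 member higher and 0 lower by a normal test on the authors' standard errors (1 and 0 at an unadjusted p under 0.05). Of the 148 tested genes of the 13 pathway lists, it left 10 higher and 11 lower, beside 3.62% and 3.95% of all tested genes. Without that null, 27 and 35 of the 148 were called, beside 13.3% and 14.8% of all tested genes. The wider null asks for a larger difference by construction. Leaving out each library was an alternative added after seeing the data, and for ATF4 and DDIT4 it rests on reads that are not settled. It gave ranges of -0.74 to -0.58 for ATF4, -0.26 to -0.22 for ATF5 and 0.71 to 0.81 for DDIT3. Ranges were -0.53 to -0.44 for DDIT4, 2.89 to 3.49 for NUPR1 and 0.76 to 0.93 for CHAC1. SESN2 ranged from 0.26 to 0.54, PPP1R15A from 0.68 to 0.73 and VLDLR from 1.04 to 1.45. The median around ATF5 was 0.10 with 10 and 0.0873 with 50 genes on either side, the cause was not tested, and it changed sign from -0.03, as did the small medians around DDIT4 (-0.01 with 10 genes), NUPR1 (-0.02) and CHAC1 (-0.03), while that around ATF4 was -0.33 and -0.39. No paired analysis was possible because the recovered libraries carry no replicate numbers. Depth limits NUPR1, VLDLR and CHAC1, with 4, 38 and 44 parental reads.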

Other observations

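GADD45A and GADD45B, growth arrest genes named together with PPP1R15A (GADD34) but unrelated to it in sequence, were higher with CDKN1A, a cell cycle inhibitor. Their log2 fold changes were 2.33 ± 0.08, 0.77 ± 0.25 and 2.52 ± 0.20 in the authors' deposited table.

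Among 6 measured genes of glutathione synthesis and the gamma-glutamyl cycle around CHAC1, 1 was higher and 0 were lower by the authors' Wald test in the authors' deposited table. The 16.7% called lies under the 28.2% of all tested genes. The higher gene was GCLM, the modifier subunit of the rate-limiting enzyme, which rose by 0.38 ± 0.09. At an unadjusted p of 0.05, 1 was higher and 1 lower.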
